A study of Mus musculus with 32 samples.

Results

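The 8 genes described here encode 5 CCAAT/enhancer binding proteins (Cebpa, Cebpb, Cebpd, Cebpe and Cebpg) and 3 further transcription factors of myeloid progenitors (Nfe2, Gfi1 and Myb). They were chosen as a list of symbols, and 8 of 8 were found among the 24411 genes of the count table of the CD11c-DTR transfer experiment and among the 24421 genes of the table of CX3CR1-DTR recipients. Of the 8 genes, 7 passed a filter of at least 50 normalized reads in at least 3 of 25 libraries (11842 genes tested) and Gfi1 did not. Normalized reads are counts per 10000000 mapped reads.

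C/EBP proteins are basic leucine zipper factors that bind DNA as dimers, and they take over from each other along the myeloid path. C/EBPα is known for the step from the common myeloid to the granulocyte and monocyte progenitor, C/EBPε for the late granule program, and C/EBPβ and C/EBPδ for the activation of monocytes and macrophages. C/EBPγ lacks an activation domain and dimerizes with the others. NFE2 pairs with small MAF proteins and is best known from megakaryocytes and erythroid cells, GFI1 is a zinc finger repressor of the granulocytic branch, and MYB keeps progenitors in an immature, dividing state and is also known from progenitors of the colonic crypt.

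All mice had the C57BL/6J background. The graft (3 libraries) consisted, as described in the methods, of CD117- CD11b+ CD115+ Ly6C+ GFPint BM monocytes of Cx3cr1 gfp/+ donors without DTx treatment, whereas its labels give blood as the organ and the CD11c-DTR genotype (Itgax-DTR/GFP). Recipients were irradiated [CD11c-DTR > WT] BM chimeras that received 18 ng of diphtheria toxin (DTx) per gram on consecutive days before the transfer and 9 ng per gram every other day after it, so that CD11c-promoter driven DTR cells of the host were ablated; host cells without the transgene remain in such mice. Graft-derived macrophages, sorted by CD45.1 and CX3CR1/GFP per the study and as CD45+ CD11b+ CD64+ Ly6C- MHCII+ cells per the labels, came from the colon on day 4 (3 libraries), day 8 (3) and day 12 (4) and from the ileum on days 4, 8 and 12 (4 each). Another 6 libraries came from the colon of DTx-treated CX3CR1-DTR recipients, on day 14 according to the methods (the labels give no day). Per the study these recipients were [CX3CR1-DTR > WT] BM chimeras. Recipients were 7 to 10 weeks old when the chimeras were made, and ages at monocyte transfer are not given in the sources used here. Dates in the labels place the CD11c-DTR libraries in 3 experiments. A 4th colon day 8 library, replicate 1 of experiment 1, goes beyond the 3 repeats that the methods give and enters only where it is named. Each CD11c-DTR group draws on more than 1 experiment, so that its spread includes that between experiments. Whether libraries of the same experiment, or the 6 CX3CR1-DTR libraries, come from separate mice is not given in the sources used here, and p-values measure the spread between libraries, which may in part be technical.

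Reads on genes ranged from 591817 to 5228664 per CD11c-DTR library and from 1223772 to 4218027 per CX3CR1-DTR library. The floor of 3 counts corresponds to 3.51 to 27.65 normalized reads and covers counting error only. Reads of macrophage markers (11 genes) were present in each library, with at most 1 gene at 0. They summed to between 62886 and 88100 normalized reads in the graft, 6732 and 42246 in the colon and 16749 and 190730 in the ileum. The colon libraries thus lay below the graft, and the name macrophages follows the sort. Intestinal epithelium markers such as Epcam and Krt8, which the sorted cells should lack, summed to between 34.9 and 61.8 normalized reads in the graft, 106933 to 171657 in the colon and 23960 to 135785 in the ileum. Epithelial RNA was thus higher in the gut than in the graft and reached higher levels in the colon than in the ileum, and its part in the results was not tested. In such bulk libraries fewer cells of a type and less RNA per cell cannot be told apart.

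Promoter sequences are shown for Cebpa and Cebpb, whose reads were lower in the gut than in the graft, for Myb, whose reads were higher, and for Gfi1, the only gene of the 5 with a promoter in the table whose window holds a C/EBP motif. They are RefSeq windows of 250 bases before to 50 bases after the start site on GRCm38.p6, whereas the counts refer to mm9; the table holds promoters for 5 of the 8 genes, and Cebpd, Cebpe and Nfe2 have no entry. Motifs searched on both strands were TTNNGNAA (C/EBP), AACNG (MYB), AAATCA (GFI1) and TGANTCA (NFE2 and AP-1). Matches are in capitals, and each sequence is written 5′ to 3′ on the strand of its gene.
Cebpa, chr7:35119043-35119342, plus strand: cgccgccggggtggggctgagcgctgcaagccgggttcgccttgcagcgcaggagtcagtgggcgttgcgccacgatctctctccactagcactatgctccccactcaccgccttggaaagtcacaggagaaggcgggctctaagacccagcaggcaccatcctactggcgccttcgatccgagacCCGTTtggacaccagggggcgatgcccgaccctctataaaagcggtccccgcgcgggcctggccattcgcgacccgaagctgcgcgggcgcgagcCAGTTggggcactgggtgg
Cebpb, chr2:167688665-167688964, plus strand: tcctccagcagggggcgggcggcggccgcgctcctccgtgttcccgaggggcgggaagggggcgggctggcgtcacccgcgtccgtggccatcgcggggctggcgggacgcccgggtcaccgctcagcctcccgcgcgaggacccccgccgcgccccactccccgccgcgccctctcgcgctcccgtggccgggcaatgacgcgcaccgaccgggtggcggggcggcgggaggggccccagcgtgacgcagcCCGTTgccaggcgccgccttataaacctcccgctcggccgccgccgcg
Myb, chr10:21160935-21161234, minus strand: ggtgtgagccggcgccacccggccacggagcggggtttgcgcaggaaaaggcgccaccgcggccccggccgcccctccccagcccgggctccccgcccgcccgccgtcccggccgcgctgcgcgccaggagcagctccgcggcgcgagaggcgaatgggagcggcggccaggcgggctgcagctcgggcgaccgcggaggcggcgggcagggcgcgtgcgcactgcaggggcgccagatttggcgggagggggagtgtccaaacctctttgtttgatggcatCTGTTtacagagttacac
Gfi1, chr5:107725756-107726055, minus strand: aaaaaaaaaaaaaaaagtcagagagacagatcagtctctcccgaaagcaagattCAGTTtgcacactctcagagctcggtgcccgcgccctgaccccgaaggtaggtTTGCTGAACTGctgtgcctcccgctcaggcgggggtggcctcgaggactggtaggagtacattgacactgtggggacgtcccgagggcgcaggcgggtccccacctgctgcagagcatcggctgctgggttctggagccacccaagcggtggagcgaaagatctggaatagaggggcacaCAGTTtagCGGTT
The Cebpa window holds 2 MYB motifs, at positions -64 and 32 from the start site, and those of Cebpb and Myb hold 1 each, at positions 3 and 33. The first Gfi1 window holds 4 MYB motifs and 1 C/EBP motif at position -143, which overlaps the MYB motif at -137. The Cebpg window (not shown) holds 3 MYB motifs, and the second Gfi1 window 1. Among 32851 promoters of this length, 80.3% hold the MYB motif, 40.7% the C/EBP motif, 7.81% the NFE2 and AP-1 motif and 4598 of them the GFI1 motif. These matches are a description of letters in the windows. The sequences of Cebpa and Cebpb are rich in GC (67.3% and 80.7%), as is that of Myb (75.0%), whereas both Gfi1 windows have 58.0%.

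Macrophages retrieved from the gut had less Cebpa and Cebpb than the graft in the colon on each day, and had more Myb in both segments. Nfe2 and Cebpe, which had 2181 to 2377 and 180 to 230 normalized reads in the graft, were at or near the counting floor in the gut. Cebpd and Cebpg were lower by smaller amounts. On colon day 4, 1 of the 7 tested genes was higher and 5 were lower (edgeR quasi-likelihood test, adjusted p under 0.05), where 60.4% of all genes tested were called (35.9% higher and 24.5% lower). The counts on colon day 8 were 1 higher and 5 lower (59.1% of all genes called, 35.2% higher and 23.9% lower), and on colon day 12 they were 1 and 6 (62.6%, 37.7% higher and 24.9% lower). In the ileum 1 gene was higher and 5 were lower on day 4, where 56.7% of all genes were called (36.2% higher and 20.5% lower), and on day 8, where 53.9% were (34.3% and 19.5%). On ileum day 12 the counts were 1 and 4, beside 55.9% of all genes (35.9% higher and 20.0% lower). Nfe2 and Cebpe passed the filter only through the graft and Myb with the help of the gut libraries, so these counts include genes that had to differ and are not read as a property of the list. The 6 comparisons share the same 3 graft libraries.

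**Figure D1:**
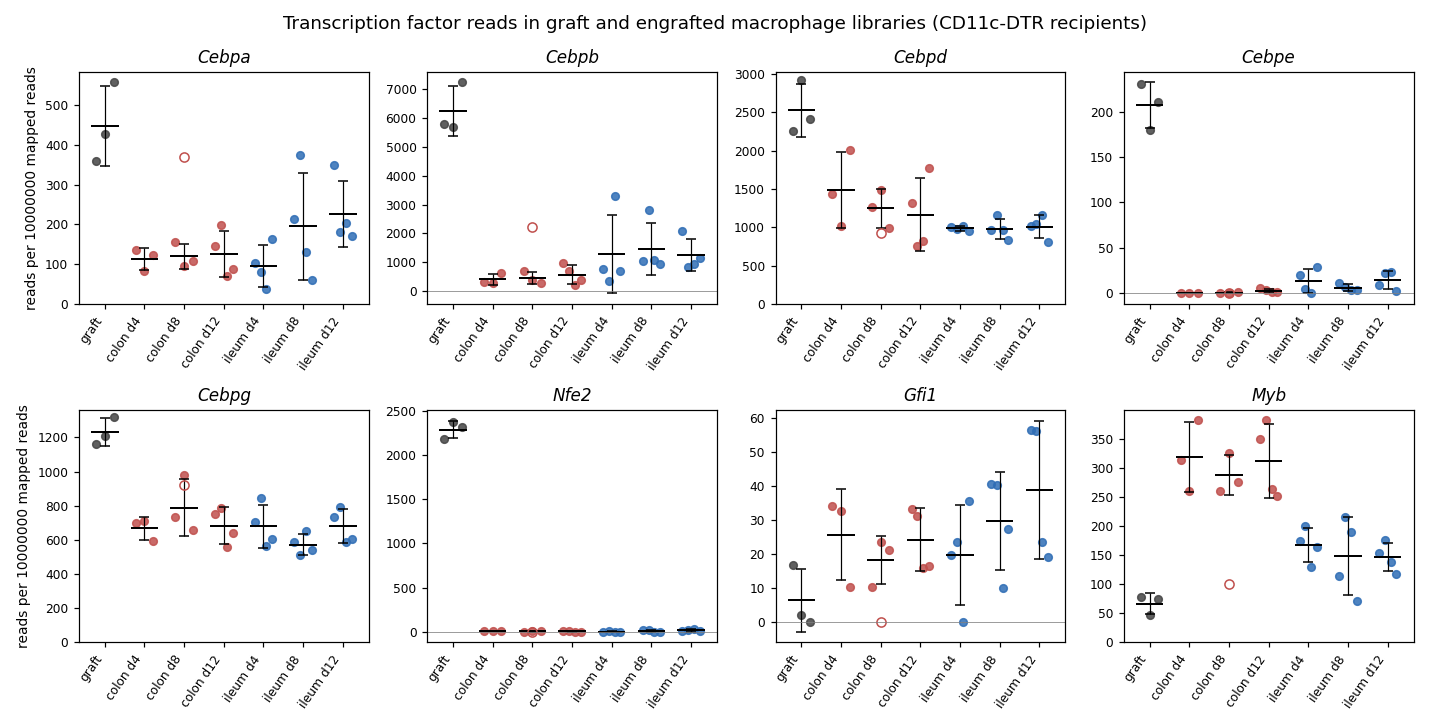
Normalized reads (per 10000000 mapped reads, linear axes) of the 8 genes in each CD11c-DTR library, by group. Points are libraries, bars the mean and SD, and the open circle is the 4th colon day 8 library (replicate 1 of experiment 1), which is not in the mean. Nfe2 and Cebpe are high in the 3 graft libraries and near 0 elsewhere, whereas Myb is lowest in the graft and higher in the colon than in the ileum.

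Cebpa (C/EBPα; chr7:35904312-35906947 on mm9, plus strand, a gene of 1 exon) had 359, 426 and 557 normalized reads in the 3 graft libraries. It had 134, 83.0 and 124 on colon day 4, 155, 96.6 and 108 on day 8, and 146, 199, 70.7 and 89.1 on day 12. None of these 10 colon libraries reached the lowest graft library. The fold changes against the graft were -1.65 (SE 0.43, adjusted p = 0.0021, edgeR) on day 4, -1.66 (SE 0.43, adjusted p = 0.0020) on day 8 and -1.54 (SE 0.39, adjusted p = 0.0016) on day 12, all on the log2 scale. With the 4th colon day 8 library, which had 369 normalized reads and lies inside the range of the graft, the day 8 value was -0.94 and was not called (adjusted p = 0.106).

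In the ileum Cebpa was called lower on day 4 and on no other day. It had 102, 81.1, 36.9 and 164 normalized reads on day 4, 214, 374, 131 and 61.2 on day 8, and 349, 180, 203 and 170 on day 12. All 4 libraries of day 4 lay below the graft, as did 3 of 4 on day 8 and all 4 on day 12, where the highest was close to the lowest graft library. The log2 fold change against the graft was -1.81 on day 4 (SE 0.42, adjusted p = 0.00072, edgeR). It was -0.73 on day 8 (SE 0.39, adjusted p = 0.120) and -0.51 on day 12 (SE 0.39, adjusted p = 0.275), which did not pass. Without ileum day 8 replicate 2, the library with 374 normalized reads, the day 8 value was -1.15 and passed (adjusted p = 0.0175).

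The same value passed with limma-trend and with library totals in place of TMM factors (log2 fold changes of -1.17 and -1.20), and the day 12 value passed with limma-trend alone (-0.88, adjusted p = 0.0357). The difference of Cebpa between ileum day 8 and day 4 was 1.08 (SE 0.40) with an unadjusted p of 0.0132 and an adjusted p of 0.121. All 22 gut libraries lay below the graft library of their own experiment, at 0.0662 to 0.970 times its level.

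Cebpb (C/EBPβ; chr2:167514415-167515932, plus strand, also 1 exon) had 5777, 5671 and 7226 normalized reads in the graft. It had 317, 299 and 639 on colon day 4, 689, 384 and 284 on day 8, and 985, 697, 222 and 396 on day 12. Each of these 10 colon libraries had less than the ileal day 8 and day 12 libraries except colon day 12 replicate 1, and the graft was above all of them. The log2 fold changes were -3.57 (SE 0.68, adjusted p = 9.56e-05, edgeR), -3.55 (SE 0.68, adjusted p = 0.00010) and -3.16 (SE 0.60, adjusted p = 7.76e-05) on days 4, 8 and 12. The 4th colon day 8 library had 2208, and with it the day 8 value was -2.32 (adjusted p = 0.0076).

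Ileal Cebpb was spread more widely, with 763, 371, 3299 and 692 normalized reads on day 4, 1041, 2822, 1084 and 938 on day 8, and 2069, 857, 944 and 1139 on day 12. On each day 1 library stood above the other 3, and these were day 4 replicate 3, day 8 replicate 2 and day 12 replicate 1. The log2 fold changes against the graft were -1.79 (SE 0.58, adjusted p = 0.0113, edgeR), -1.59 (SE 0.57, adjusted p = 0.0229) and -1.81 (SE 0.58, adjusted p = 0.0099). The call of ileum day 8 was lost with experiment as a block (-1.36, adjusted p = 0.0562) and without ileum day 8 replicate 1, 3 or 4 or graft replicate 3 (adjusted p of 0.0602, 0.0608, 0.0551 and 0.0688). It was also lost when the 4th colon day 8 library joined the fit (adjusted p = 0.0602), and the call of ileum day 4 was lost when the graft and ileum day 4 were fitted alone (adjusted p = 0.0644).

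Beside these values, the summed macrophage markers were between 62886 and 88100 normalized reads in the graft, 6732 and 42246 in the colon and 16749 and 190730 in the ileum. A list of 15 granule genes of neutrophils and promyelocytes such as Elane and Mpo had 69960 to 86015 in the graft, 889 to 5941 in the colon and 2374 to 34057 in the ileum. Neutrophil markers such as S100a8 and Cxcr2 were at 5832 to 8660 in the graft, 476 to 2205 in the colon and 1475 to 10808 in the ileum. All 3 lists lay lower in the colon than in the graft, as Cebpb did. In the ileum the granule list lay below the graft, whereas the ranges of the macrophage and neutrophil lists overlapped those of the graft. The part of these lists in the values of Cebpb was not tested.

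Cebpd (C/EBPδ; chr16:15887379-15889638, plus strand) had 2257, 2918 and 2412 normalized reads in the graft. In the colon it had 1434, 1017 and 2011 on day 4, 1260, 1493 and 991 on day 8, and 1316, 754, 822 and 1780 on day 12. In the ileum it varied little, from 949 to 1023 on day 4, 836 to 1156 on day 8 and 806 to 1160 on day 12. No gut library reached the lowest graft library.

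Its log2 fold change was -0.44 on colon day 4, which did not pass (SE 0.27, adjusted p = 0.158, edgeR). It was -0.77 (adjusted p = 0.0173) and -0.76 (adjusted p = 0.0113) on colon days 8 and 12, and -0.91, -0.82 and -0.86 on ileum days 4, 8 and 12 (SE 0.25 each, adjusted p between 0.0034 and 0.0082). The colonic results rested on the scaling or on single libraries. Cebpd passed on colon day 4 with library totals in place of TMM factors (-0.77, adjusted p = 0.0239), with limma-trend (-0.79, adjusted p = 0.0144) and without colon replicate 3 (-0.70, adjusted p = 0.0463). It was no longer called on colon day 8 without graft replicate 2 (-0.67, adjusted p = 0.0665) or colon day 8 replicate 4 (-0.66, adjusted p = 0.0777), or on colon day 12 without graft replicate 2 (-0.65, adjusted p = 0.0538).

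Cebpg (C/EBPγ; chr7:35831441-35841585, minus strand) had 1159, 1211 and 1320 normalized reads in the graft and between 512 and 979 in the 22 gut libraries, so that the groups did not overlap. The mean was 667 ± 65.3 (SD, n = 3) on colon day 4, 789 ± 168 (n = 3) on day 8 and 684 ± 106 (n = 4) on day 12, and in the ileum 679 ± 125, 572 ± 59.7 and 681 ± 99.4 (n = 4 each). Its log2 fold changes against the graft were the smallest of the 7 genes on 5 of the 6 comparisons, colon day 4 being the exception. They passed on colon day 4 (-0.54, SE 0.21, adjusted p = 0.0279, edgeR), colon day 12 (-0.51, SE 0.19, adjusted p = 0.0257) and ileum day 8 (-0.54, SE 0.19, adjusted p = 0.0222). They did not pass on colon day 8 (-0.39, adjusted p = 0.107), ileum day 4 (-0.42, adjusted p = 0.0700) and ileum day 12 (-0.38, adjusted p = 0.0980).

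The side of the threshold on which Cebpg fell rested on single libraries and on the scaling. The colon day 4 call was lost without colon day 4 replicate 1 or 3 or graft replicate 3 (adjusted p of 0.0695, 0.112 and 0.0966) and with experiment as a block (-0.50, adjusted p = 0.0522). On colon day 12 it was lost without colon replicate 1 or 3 or graft replicate 3 (adjusted p of 0.0577, 0.0632 and 0.102, edgeR). The ileum day 8 call was lost in 4 of 17 alternatives, among them without ileum replicate 2 or graft replicate 3 (0.0697 and 0.0902). The median log2 fold change of all genes tested was 0.20 to 0.24 in these comparisons with TMM factors and -0.35 to -0.04 with library totals; with library totals Cebpg passed in colon day 8 (-0.64, adjusted p = 0.0139), ileum day 4 (-0.85, adjusted p = 0.00093) and ileum day 12 (-0.85, adjusted p = 0.00080) too. The direction was lower in the gut under each alternative that was run.

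**Figure D2:**
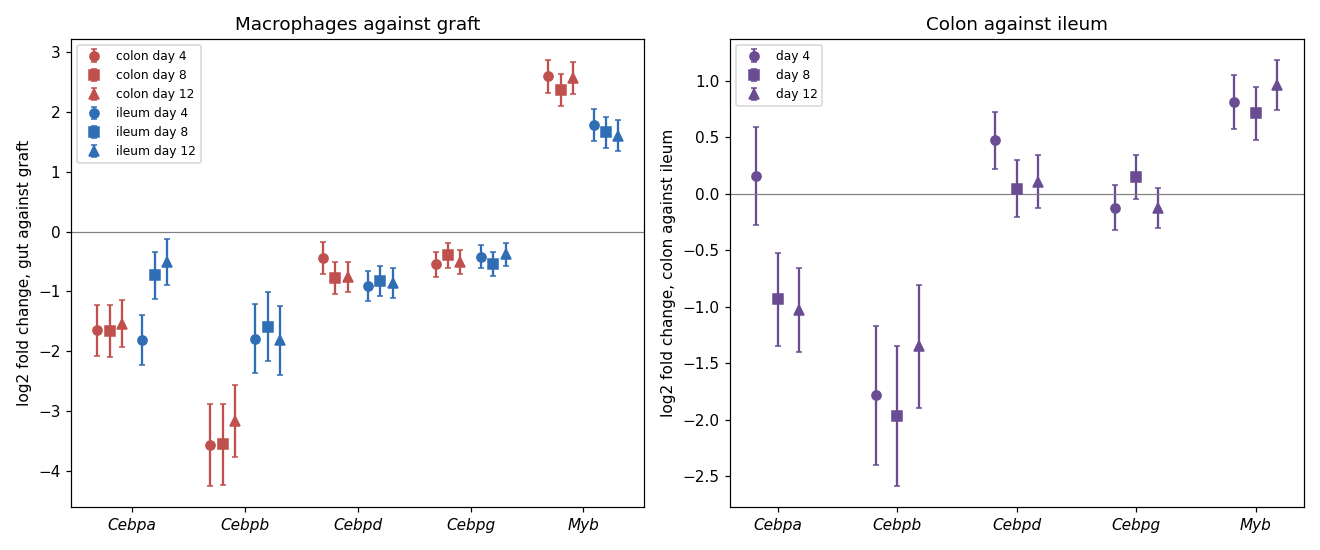
Log2 fold changes with their SE for the 5 genes with reads above the floor in all groups, for gut macrophages against the graft (left, colon in red and ileum in blue) and for colon against ileum (right, by day). Cebpb falls by over 3 on the log2 scale in the colon and by less than 2 in the ileum, whereas Myb rises by 2.37 to 2.59 in the colon and 1.60 to 1.78 in the ileum.

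Cebpe (C/EBPε; chr14:55329200-55331011, minus strand) had 230, 180 and 211 normalized reads in the graft. It was at 0 in the 3 libraries of colon day 4, had 1 count in all of colon day 8 and 1 to 3 counts per library on colon day 12. In the ileum it had 19.8, 4.27, 0 and 28.5 normalized reads on day 4, 10.8, 6.74, 3.35 and 3.40 on day 8, and 9.06, 22.6, 23.4 and 2.96 on day 12, which correspond to at most 9 counts. The graft was at least 30.5-fold higher than colon day 4, against the mean floor of 3 counts per library. Pooled counts per mapped read were 313 times as high in the graft as on colon day 8 (95% counting interval 55.6 to 12396) and 76.9 times as high as on colon day 12 (34.8 to 211). The fitted log2 fold changes in the ileum, which depend on the prior count at such levels, were -3.59, -4.45 and -3.49 on days 4, 8 and 12.

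Nfe2 (NFE2; chr15:103078643-103088834, minus strand) had 2181, 2377 and 2320 normalized reads in the graft, from 777 to 1227 counts. No colon library had more than 3 counts. Ileal libraries had at most 1 count on day 4, at most 5 on day 8 and 3, 4, 11 and 1 on day 12. Pooled counts were 533 times as high in the graft as on colon day 4 (95% counting interval 244 to 1453), 707 times as high as on colon day 8 (303 to 2179) and 1303 times as high as on colon day 12 (508 to 4787). For ileum day 4 the ratio was 2351 with an interval of 422 to 92875, since it rests on 1 count. On ileum days 8 and 12 the fitted log2 fold changes were -7.77 (SE 0.59) and -7.14 (SE 0.54). Of marker genes of erythroid cells and platelets, lineages in which NFE2 is known to act, 4 were tested. On each colon day 3 of them were lower than in the graft and 1 was higher, which was Pf4, a platelet chemokine. Of all genes tested, 23.9% to 24.9% were lower and 35.2% to 37.7% higher on the colon days. On each ileum day Pf4 alone was called, as higher, beside 34.3% to 36.2% of all genes higher and 19.5% to 20.5% lower.

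Gfi1 (chr5:108145674-108154825, minus strand) had 0 to 25 counts per library and did not enter the test. It had 6, 1 and 0 counts in the graft libraries, which are 16.8, 1.94 and 0 normalized reads. It had 34.1, 32.6 and 10.2 on colon day 4, 10.1, 23.5 and 21.1 on day 8, and on day 12 it had 17, 10, 13 and 10 counts, up to 33.1 normalized reads. In the ileum Gfi1 had 19.8, 23.5, 0 and 35.7 normalized reads on day 4, 40.7, 40.5, 10.0 and 27.2 on day 8, and 56.6, 56.4, 23.4 and 19.2 on day 12. The highest graft library lay inside the range of 5 of the 6 gut groups. In a fit without a filter on low counts the log2 fold change of Gfi1 against the graft was 2.40, 1.90 and 2.27 on colon days 4, 8 and 12 (adjusted p of 0.0189, 0.0674 and 0.0188, edgeR) and 2.17, 2.79 and 3.07 on ileum days 4, 8 and 12 (adjusted p of 0.0386, 0.0058 and 0.0021), but these rest on 7 counts in the graft.

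Myb (MYB; chr10:20844736-20880790, minus strand) had 78.6, 46.5 and 75.1 normalized reads in the graft. In the colon it had 314, 261 and 382 on day 4, 260, 326 and 276 on day 8, and 350, 383, 264 and 252 on day 12. All 10 libraries had over 3 times as much as the graft library of the same experiment, with ratios from 3.31 to 7.02. The log2 fold changes were 2.59 (SE 0.27, adjusted p = 2.78e-08, edgeR), 2.37 (SE 0.27, adjusted p = 1.05e-07) and 2.57 (SE 0.26, adjusted p = 1.68e-08).

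In the ileum Myb had 175, 201, 129 and 164 on day 4, 114, 216, 191 and 71.4 on day 8, and 154, 177, 138 and 118 on day 12. Only ileum day 8 replicate 4 lay inside the range of the graft. The log2 fold changes were 1.78, 1.66 and 1.60 on days 4, 8 and 12 (SE of 0.26 to 0.27, adjusted p between 5.33e-06 and 1.55e-05). These rises, and those in the colon, kept their side of the threshold under all alternatives that were run. The 4th colon day 8 library had 101 normalized reads of Myb, less than the 10 other colon libraries.

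Between colon and ileum the genes that differed were Cebpe on day 4, Cebpb, Myb and Cebpe on day 8, and Cebpa, Myb, Nfe2 and Cebpe on day 12. Myb was higher in the colon and the others were higher in the ileum. Cebpd and Cebpg passed on no day. Day 4 gave 1 call of 7 (edgeR, adjusted p under 0.05), where 3.18% of all genes were called (0.524% higher and 2.66% lower in the colon). Day 8 gave 3 calls, 1 higher and 2 lower, beside 35.0% of all genes (16.7% and 18.3%), and day 12 gave 4, 1 higher and 3 lower, beside 32.5% (15.3% and 17.2%). Ileum day 4 holds libraries of experiments 1 and 2 and colon day 4 of experiments 2 and 3, so that experiment and segment partly go together on this day.

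Myb did not pass on day 4, with a log2 difference of colon from ileum of 0.81 (SE 0.24, adjusted p = 0.0578, edgeR). The difference was 0.71 (SE 0.24, adjusted p = 0.0236, edgeR) on day 8 and 0.96 (SE 0.22, adjusted p = 0.0023) on day 12. The colonic and ileal libraries of this fit did not overlap on any day (252 to 383 against 71.4 to 216). The 4th colon day 8 library, which is not in this fit, had 101 and lay inside the ileal range. The day 4 value passed in 5 of 17 alternatives, among them with experiment as a block (0.89, adjusted p = 0.0332, edgeR). The day 8 call was lost in 6 of 17 alternatives. These included the fits without colon day 8 replicate 3 or 4 or ileum day 8 replicate 1 or 4 (adjusted p of 0.0907, 0.0656, 0.0757 and 0.0757, edgeR). They also included the fit with the 4th colon day 8 library (0.54, adjusted p = 0.124). On day 12 the call was kept under each alternative that was run. The intestinal epithelium list was higher in the colon as well, at 106933 to 148592 normalized reads on day 12 against 23960 to 68984 in the ileum; its part in the values of Myb was not tested.

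The log2 difference of Cebpb between colon and ileum was -1.97 on day 8 and passed (SE 0.62, adjusted p = 0.0168, edgeR). It was -1.78 on day 4 (SE 0.62, adjusted p = 0.0923) and -1.35 on day 12 (SE 0.55, adjusted p = 0.0611), which did not pass. On day 8 the 3 colon libraries lay below the 4 ileal ones. The day 8 call was lost without colon day 8 replicate 3 or 4 or ileum day 8 replicate 2 (adjusted p of 0.0664, 0.0850 and 0.0610), and with the 4th colon day 8 library the difference was -0.73 (adjusted p = 0.445). The day 12 value passed in 6 of 18 alternatives. Among them were the fit with experiment as a block (-1.48, adjusted p = 0.0423, edgeR) and that without ileum day 12 replicate 2 (adjusted p = 0.0491). The day 4 value passed in 2 of 17, among them without ileum day 4 replicate 2 (-2.10, adjusted p = 0.0176).

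Cebpa did not differ between the segments on day 4 beyond the spread of the libraries (0.16, SE 0.43, adjusted p = 0.883, edgeR). The colon had less on day 8, where the difference did not pass (-0.93, SE 0.41, adjusted p = 0.0812), and on day 12, where it did (-1.03, SE 0.37, adjusted p = 0.0369). Without ileum day 8 replicate 4 the day 8 difference passed (-1.18, adjusted p = 0.0268). The day 12 call was lost in 8 of 18 alternatives. These included the fits without ileum replicate 1 or colon replicate 1, 3 or 4 (adjusted p of 0.188, 0.0715, 0.128 and 0.0989, edgeR). They also included library totals and limma-trend (adjusted p of 0.124 and 0.132).

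Cebpe and Nfe2 differed between segments at a level of a few counts. The mean of ileal Cebpe on day 4 was 1.94 times the mean floor of the colon libraries (12 counts against 0). Of the 4 ileal libraries 2 were themselves at the floor, so this ratio is not a lower bound. Pooled counts of Cebpe were 9.75 times as high in the ileum on day 8 (8 counts against 1, 95% counting interval 1.31 to 433) and 4.48 times as high on day 12 (21 against 6, 1.75 to 13.6). The edgeR adjusted p-values were 0.0369, 0.0348 and 0.0187.

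The Cebpe call of day 4 was lost in 8 of 16 alternatives. These included fits without any of the 3 colon libraries or ileum replicates 1 or 4 (adjusted p between 0.0818 and 0.159, edgeR). The day 8 call was lost in 9 of 16. Among these were fits without any of the 3 colon libraries or ileum replicates 1 or 2 (0.0529 to 0.115) and the experiment block (0.0581). That of day 12 was lost in 3 of 17, among them without colon replicate 3 or ileum replicate 3 (0.0656 and 0.0725). Nfe2 on day 12 had 19 counts in the ileum and 4 in the colon, a ratio of 6.08 (2.02 to 24.6, edgeR adjusted p = 0.0217). Its call was lost in 5 of 18 alternatives, among them without colon replicate 3 or 4 or ileum replicate 3 (0.0801, 0.0603 and 0.157). Pooled Nfe2 counts of day 8 had a ratio of 2.19 with an interval that includes 1 (0.66 to 8.33), and on day 4 both segments were at the floor. The granule gene list was higher in the ileum on day 12, at 5286 to 34057 normalized reads against 1395 to 5941 in the colon. Of 4 erythroid and platelet markers tested, 2 were lower in the colon on day 4, 4 on day 8 and 2 on day 12. Of all genes tested, 2.66%, 18.3% and 17.2% were lower in the colon on these days. The part of both lists in these values was not tested.

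No change between days passed for any of the 7 genes tested. None was called between days 4 and 8 or days 8 and 12 in the colon or the ileum with edgeR, DESeq2 or limma-trend, and edgeR called 0.0% of all genes in 3 of these 4 comparisons and 5.13% between ileum days 4 and 8. At an unadjusted p under 0.05 there was 1 gene with edgeR, Cebpa between ileum days 4 and 8, 2 with DESeq2 and 0 with limma-trend, all in that comparison. The test of whether the change over time differed between colon and ileum called 0 of the 7 genes from day 4 to day 8 and from day 8 to day 12, with 0.0% of all genes called and no member at an unadjusted p under 0.05. For Cebpa this difference was -1.09 (SE 0.59, adjusted p = 0.472, edgeR) between days 4 and 8.

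Macrophages from CX3CR1-DTR recipients differed from those of the CD11c-DTR colon in 5 of the 8 genes. They had more Cebpa, Cebpb and Nfe2 and less Myb and Cebpg than CD11c-DTR colon day 12. Levels in this comparison are counts per 10000000 reads on genes, for the CD11c-DTR libraries too, and the fit of these 3 groups tested 11718 genes, among them all 8. Against colon day 12, 60.7% of all genes tested were called (25.2% higher and 35.4% lower). Against the graft 75.5% were called (39.5% higher and 36.0% lower), and of the 8 genes 1 was higher and 5 were lower. The gene that was higher, Gfi1, passed the filter only through gut libraries, and Nfe2 and Cebpe only through the graft. These counts are therefore not read as a property of the list. The DTR transgene of the recipients, the day and the count table go together in this comparison and cannot be told apart. Any difference between sequencing runs would go with them.

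Myb had 448 to 650 reads in the 4 libraries of colon day 12, 65.9 to 114 in the graft and 16.3, 39.5, 13.6, 11.4, 52.2 and 31.9 in the 6 CX3CR1-DTR libraries, from 2 to 22 counts. All 6 lay below the lowest graft library. The log2 difference was -4.15 against colon day 12 (SE 0.34, adjusted p = 1.73e-07, edgeR) and -1.40 against the graft (SE 0.38, adjusted p = 0.0040). The CX3CR1-DTR libraries had 205217 to 264821 reads of the intestinal epithelium list per 10000000 on genes and those of colon day 12 181522 to 231898. The part of this list in the values of Myb was not tested.

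**Figure D3:**
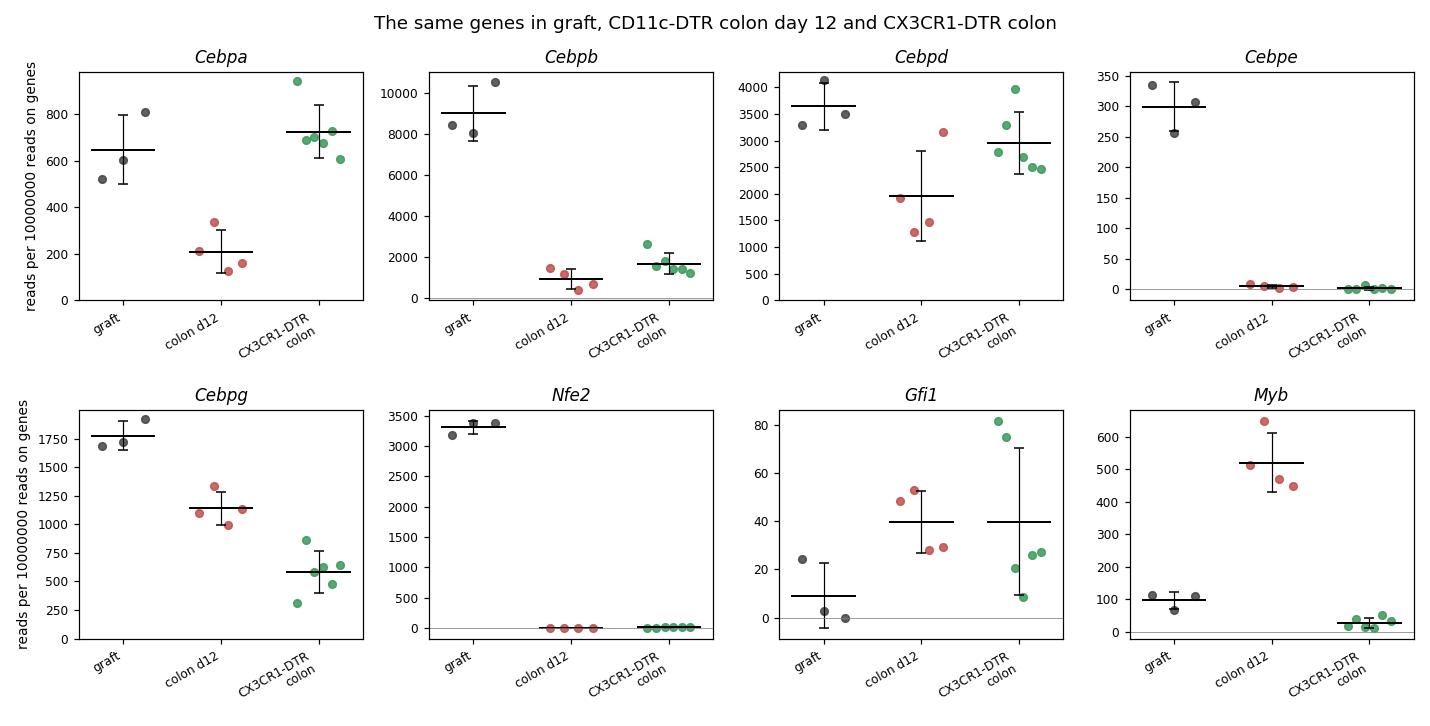
Reads per 10000000 reads on genes (linear axes) of the 8 genes in the graft (3 libraries), CD11c-DTR colon day 12 (4) and CX3CR1-DTR colon (6); points are libraries, and bars the mean and SD. Cebpa of the CX3CR1-DTR libraries lies in and above the range of the graft, and Myb lies below both other groups.

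Cebpa had 940, 690, 702, 675, 725 and 605 reads in the CX3CR1-DTR libraries, 523 to 810 in the graft and 126 to 338 on colon day 12. The log2 difference against colon day 12 was 1.79 (SE 0.26, adjusted p = 3.63e-05, edgeR), whereas that against the graft was 0.45 and did not pass (SE 0.27, adjusted p = 0.138). Cebpb had 1242 to 2648 (median 1481) against 395 to 1442 on colon day 12, ranges that overlap. Its log2 difference of 0.84 passed (SE 0.31, adjusted p = 0.0276) but was lost without colon day 12 replicate 3 or 4 (0.60 and 0.74, adjusted p of 0.0776 and 0.0822). Against the graft Cebpb was lower, with a log2 difference of -2.13 (SE 0.31, adjusted p = 2.25e-05).

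Cebpg had 311 to 861 reads (median 606) in the CX3CR1-DTR libraries, below the 990 to 1337 of colon day 12, with a log2 difference of -0.99 (SE 0.21, adjusted p = 0.0010, edgeR) and of -1.31 against the graft (SE 0.23, adjusted p = 0.00011). Cebpd had 2462 to 3965 (median 2735) against 1279 to 3162 on colon day 12. Its differences of 0.56 (SE 0.24, adjusted p = 0.0587) and, against the graft, -0.02 (SE 0.26, adjusted p = 0.957) did not pass. The first passed in 6 of 17 alternatives. Without colon day 12 replicate 4, the highest of its group at 3162, it was 0.90 (adjusted p = 0.0024, edgeR). It passed too without CX3CR1-DTR replicate 1 (0.59, adjusted p = 0.0391) or 6 (0.64, adjusted p = 0.0474).

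Nfe2 had 1 to 6 counts per CX3CR1-DTR library, 21 in all against 4 on colon day 12. The ratio was 4.73 per read on genes (95% counting interval 1.60 to 19.0, edgeR adjusted p = 0.0099). This call was lost in 1 of 17 alternatives. Of 3 erythroid and platelet markers tested in this comparison 2 were higher in CX3CR1-DTR recipients as well, beside 25.2% of all genes tested. The part of these markers in the values of Nfe2 was not tested. Cebpe had 2 counts in all 6 libraries, and its pooled level in the graft was 219 times as high (59.9 to 1814). Gfi1 had 3 to 17 counts per library. Its level of 8.55 to 81.7 spanned that of colon day 12 (28.2 to 52.9; log2 difference -0.10, SE 0.61, adjusted p = 0.904). Against the graft Gfi1 was higher by 2.38 (SE 0.85, adjusted p = 0.0203, edgeR), on 7 counts in the graft. Gfi1 passed the filter only through gut libraries, so this call is not read as support for a rise. The call was lost in 3 of 15 alternatives, among them without graft replicate 2 or 3 (adjusted p of 0.0929 and 0.0777).

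**Figure D4:**
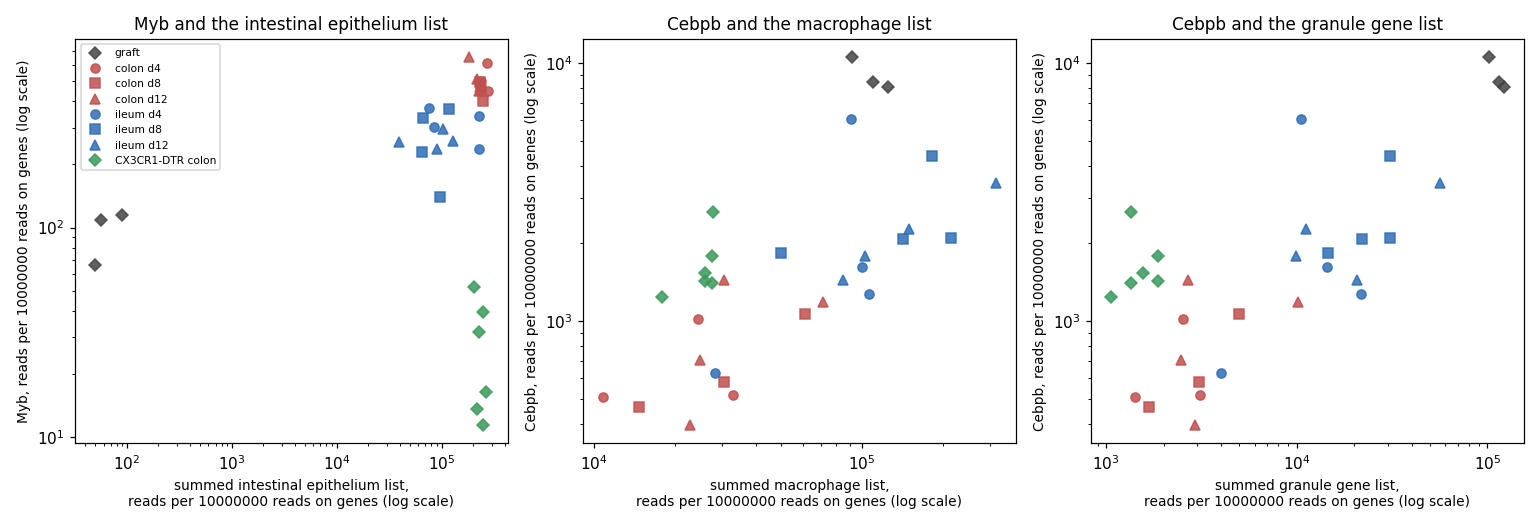
Myb against the summed intestinal epithelium list, and Cebpb against the summed macrophage list and the summed granule gene list, in each library (reads per 10000000 reads on genes, log scales; colours and shapes are groups). CX3CR1-DTR libraries (green) lie within the range of colonic ones (red) for the epithelium list. Their Myb is lower than that of any other group, and the graft (dark grey) has the most Cebpb. The part of the lists in these values was not tested.

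Genes of the same pathways were taken from lists, and their counts stand beside those of all genes tested, of which 35.9% were higher and 24.5% lower on colon day 4 and 36.2% and 20.5% on ileum day 4. Of 10 partners and regulators of C/EBP proteins, 9 were tested, and 4 were higher and 2 lower on colon day 4 and 6 and 2 on ileum day 4 (median log2 fold changes of 1.33 and 1.63, against 0.21 and 0.23 for all genes). Trib1, a pseudokinase that targets C/EBPα for degradation, rose from 201 ± 101 normalized reads in the graft (n = 3) to 806 ± 167 on colon day 4 (n = 3; log2 fold change 2.34, adjusted p = 0.00045, edgeR) and 1108 ± 941 on ileum day 4 (n = 4; 2.95, adjusted p = 3.87e-05). Batf and Nfil3, both leucine zipper factors, fell. Batf had 425 ± 119 in the graft and 25.7 ± 13.4 on colon day 4 (-3.72, adjusted p = 3.72e-06), and Nfil3 had 515 ± 40.3 and 81.6 ± 28.6 (-2.32, adjusted p = 0.00014).

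Of the relatives and partners of NFE2, 7 of 7 were tested, with 3 higher and 2 lower on colon day 4 and 4 and 2 on ileum day 4. For all genes tested the shares were 35.9% higher and 24.5% lower on colon day 4 and 36.2% and 20.5% on ileum day 4. Mafg, a small MAF partner of NFE2, fell from 1335 ± 134 normalized reads to 304 ± 80.3 on colon day 4 (log2 fold change -1.80, adjusted p = 1.95e-06, edgeR), whereas Nfe2l1, a broadly expressed relative, rose from 297 ± 65.5 to 665 ± 132 (1.48, adjusted p = 4.90e-05). Maff rose in the ileum (4.81, adjusted p = 3.11e-05) from 10.8 ± 8.72 to 225 ± 211 normalized reads on day 4. Of the MYB family and its coactivators 5 of 6 were tested, and on colon day 4 none was higher and 3 were lower, among them Ep300, an acetyltransferase (-1.19, adjusted p = 0.0024), and Men1 (-0.79, adjusted p = 0.0478). Of GFI1 relatives and corepressors 5 of 6 were tested, with 1 higher (Rcor1, 0.83, adjusted p = 0.0268) and 1 lower (Hdac2, -1.21, adjusted p = 0.0185) on colon day 4, and 1 lower on ileum day 4 (Kdm1a, -0.87, adjusted p = 0.0119).

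Of 18 other myeloid transcription factors 16 were tested, and 6 were higher and 8 lower on colon day 4, and 7 and 6 on ileum day 4. Beside them, 35.9% of all genes tested were higher and 24.5% lower on colon day 4, and 36.2% and 20.5% on ileum day 4. Ikzf1, which encodes the lymphoid and myeloid factor Ikaros, fell from 817 ± 203 normalized reads in the graft to 18.6 ± 10.8 on colon day 4 (log2 fold change -5.15, adjusted p = 1.72e-07, edgeR). Egr1, an immediate early gene, rose from 18.8 ± 6.84 to 3399 ± 359 (7.84, adjusted p = 6.36e-10). Hoxa9 had 0.807 ± 1.40 in the graft and 376 ± 63.4 on colon day 4. Of 15 granule genes of neutrophils and promyelocytes, targets of C/EBPε among them, 14 were tested and 13 were lower on colon day 4 and on ileum day 4, with 1 higher each. Prtn3, the serine protease proteinase 3, had 2644 ± 932 in the graft and 7.28 ± 9.32 on colon day 4. Of 10 progenitor surface and cycle genes, 4 were higher and 6 lower on each of these days. Top2a, a marker of dividing cells, fell from 4276 ± 834 to 564 ± 279 on colon day 4 (-2.57, adjusted p = 6.31e-06), whereas Sox4 rose from 56.0 ± 22.9 to 564 ± 134 (3.64, adjusted p = 8.86e-08).

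The genes whose log2 levels followed each member most closely over the 25 libraries were ranked by Pearson's r among the 11842 genes tested. These r are descriptions over libraries that fall into a graft and a gut group. They were 0.928 for Ptpra, 0.921 for Emd and 0.916 for Irf8 with Cebpa, 0.951 for Slc29a3, 0.935 for Il10ra and 0.934 for Pik3cd with Cebpb, and 0.878, 0.874 and 0.862 for Cnppd1, Bscl2 and Szrd1 with Cebpd. Cebpe was closest to Treml2 (0.986), Chil3 (0.979) and Lilra6 (0.978), and Nfe2 to Galnt9, Fut7 (both 0.997) and Fcnb (0.994). Cebpg was closest to Zfp277 (0.906), Nadk (0.900) and Tmco1 (0.892). Myb was closest to Gtf2ird1 (0.929), Grhl2 (0.925) and Pla2g5 (0.924), of which Grhl2 is known as an epithelial transcription factor.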

How the data were processed

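Poly(A) RNA of sorted cells was sequenced by the authors with a method derived from MARS-seq, a 3′ end protocol, in 26 libraries of CD11c-DTR recipients and 6 of CX3CR1-DTR recipients. Per the methods, reads were aligned to mm9 with HISAT 0.1.6 and those mapping uniquely were kept. The deposited values are counts of reads per gene, made by the authors with HOMER on exons of the sense strand with 1 transcript per gene and without normalization; the HOMER version, and whether molecular identifiers were collapsed, are not given in the sources used here. The CX3CR1-DTR count file also holds 52 columns without a name, which were not used.

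Counts were scaled to 10000000 mapped reads, or to 10000000 reads on genes where CX3CR1-DTR libraries were compared, since their table gives no total of mapped reads. Fold changes came from edgeR 4.0.16 in R 4.3.3 (TMM, glmQLFit, glmQLFTest) with 1 fit of 7 groups and 25 libraries and a second fit of 3 groups, on genes that reached 50 normalized reads in 3 or more libraries, and p-values were adjusted by Benjamini-Hochberg over all genes tested. Each SE was taken as the ratio of the absolute fold change (log2) to √F. Ratios of pooled counts have exact 95% intervals of counting error. The code was tested on simulated data. Alternatives were DESeq2 1.42.0, limma-trend 3.58.1 on log2(normalized reads + 50), other scalings and filters, other sets of libraries, and experiment as a block. Dates in the labels mark a shared experiment, and 1 date a year before the others of its day was read as a slip. The experiment number paired libraries only in the alternative with experiment as a block and in ratios to the graft of the same experiment. The reported fits of 7 and of 3 groups had no term for experiment and are unpaired. Deviations from the group means of libraries of the same experiment had a median r of 0.0204 over 96 pairs, and those of other experiments of -0.0089 over 171. For CX3CR1-DTR recipients the methods state fewer repeats than the 6 libraries, and all 6 were used. Among 51 pairs of libraries of a group chi-square per degree of freedom was 5.21 or more, so none was taken as a duplicate.

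The 8 genes, the gene lists and the tests were chosen with earlier results of these data known. From each list, the up to 3 genes with the smallest adjusted p on colon day 4 and on ileum day 4 against the graft and with 200 or more normalized reads on average in the higher group were eligible to be named. Like genes are the 3 with the highest Pearson r of log2(normalized reads + 50). Marker lists of other cell types were summed per library (the sum for erythroid cells and platelets is not reported here), and the T cell, B cell and plasma cell, mast cell, monocyte and stromal lists are given in the closing section.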

Additional observations from a re-analysis of the deposited data

Results flagged for a closer look

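Among 36 groups of 4 or 6 libraries (a gene in a group), 3 held a library that stood apart from the rest of its group by Dixon's test at the 95% level, which chance gives in about 1 of 20 groups. Groups of 3 libraries (the graft and colon days 4 and 8) and groups with no library above 3 counts were not tested. Cebpa had 940 reads per 10000000 reads on genes in CX3CR1-DTR colon replicate 1, where the other 5 libraries had 605 to 725. Cebpb had 3299 normalized reads in ileum day 4 replicate 3, of experiment 1, where the others had 371 to 763, and 2822 in ileum day 8 replicate 2, of experiment 3, where the others had 938 to 1084.

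Differences between the segments that passed the test of the difference itself were, for Myb, 0.71 on day 8 and 0.96 on day 12 on the log2 scale (colon higher), for Cebpb -1.97 on day 8 and for Cebpa -1.03 on day 12 (ileum higher). Cebpe was at least 1.94-fold higher in the ileum on day 4, and its pooled counts were 9.75 times as high on day 8 and 4.48 times on day 12; those of Nfe2 were 6.08 times as high on day 12. Between CX3CR1-DTR colon and CD11c-DTR colon day 12, Cebpa (1.79) and Cebpb (0.84) were higher and Myb (-4.15) and Cebpg (-0.99) lower on the log2 scale, and pooled counts of Nfe2 were 4.73 times as high. The DTR transgene of the recipients, the day and the count table cannot be told apart in this comparison.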

How the results depend on the processing

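The numbers of the 7 genes called against the graft stayed within 1.5 times of the reported ones under each alternative that was run, as did those of CX3CR1-DTR colon and of the changes over time (0 throughout). Between colon and ileum they depended on the setting. On day 4 the count was 1, and 3 with DESeq2, 2 with ileum day 4 of experiment 2 alone, 2 in the fit with experiment as a replicate block, and 0 with limma-trend, with only the groups compared and with all 4 colon day 8 libraries. Leaving out 1 library at a time gave 0 to 3. On day 8 it was 3, and 1 with only the groups compared and 1 with all 4 colon day 8 libraries, and 0 to 3 with 1 library left out. On day 12 it was 4, and 1 with limma-trend, and 1 to 5 with 1 library left out. The block changed no call other than those named in the report, and CX3CR1-DTR libraries carry no experiment number, so that no paired analysis was possible for them.

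Of 77 results for single genes, 41 kept direction and side of the threshold under all alternatives. Signs turned in 7 that were near 0 and not called. These were colon against ileum for Cebpa on day 4 (-0.011 to 0.42 with 1 library left out, -0.23 with experiment 2 alone), Cebpd on day 8 (-0.089 to 0.16 with 1 library left out, -0.0063 with a filter of 200 normalized reads), Cebpg on day 8 (-0.021 to 0.24), Cebpd on day 12 (-0.24 to 0.27) and Cebpg on day 12 (0.0064 with library totals, 0.0044 with limma-trend). With 1 library left out, Cebpd of CX3CR1-DTR colon ranged from -0.13 to 0.10 against the graft, and Gfi1 from -0.41 to 0.15 against colon day 12. The causes were not tested.

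Cebpe, Nfe2 and Gfi1 had fewer than 10 counts in many gut libraries, so that differences between segments at these levels were not reliably detectable at this depth.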

Other observations

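The remaining marker lists are given as ranges of summed normalized reads. B cell and plasma cell markers such as Cd79a were at 239 to 267 in the graft, 664 to 8485 in the colon and 3336 to 141922 in the ileum, and classical monocyte markers such as Ly6c2 and Ccr2 at 62675 to 79778 in the graft, 3311 to 7823 in the colon and 2192 to 8461 in the ileum. T cell markers reached 14.5 in the graft, 68.2 in the colon and 598 in the ileum. Mast cell markers reached 2.42, 42.1 and 29.9, and fibroblast and endothelial markers 116, 5192 and 6442. Their part in the values of the 8 genes was not tested.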
